A study of Homo sapiens with 6 samples.

Results

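The 60 genes described here encode proteins of nucleolar ribosome biogenesis: snoRNP proteins, nucleolar chaperones, RNA polymerase I factors and assembly factors of the small and large ribosomal subunits. They were chosen by gene symbol, with no measured value in the rule, and were found by joining the transcripts of the tables to GENCODE 29 genes and summing per gene. All 60 were present among 35580 genes with at least 1 transcript in the tables, and all 60 passed the filter on low counts that left 15223 genes for testing.

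The libraries came from Rh30, a cell line of alveolar rhabdomyosarcoma, a childhood tumour with skeletal-muscle features. Per the labels the line carries the PAX3-FOXO1 fusion, in controls and knockdown cells alike. The design had 2 groups of 3 biological replicates, a control and a knockdown of DDX5 labelled siDDX5. DDX5 is a DEAD-box RNA helicase with roles in transcription, splicing and ribosomal RNA processing. The siRNA, the nature of the control, the dose and the time after transfection are not given in the sources used here. Everything below concerns 1 cell line, and p-values measure the spread between these cultures.

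Ribosomes are built largely in the nucleolus. RNA polymerase I transcribes the pre-ribosomal RNA there, box C/D and H/ACA snoRNPs guide its methylation and pseudouridylation, and the small-subunit processome and the large-subunit assembly factors fold and cleave it while ribosomal proteins are added. Growing cells, tumour cells included, keep these genes active together, and the MYC family of transcription factors, which bind the E-box CACGTG, is a known activator of many of them.

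A feature the choice of members did not use is this E-box near the start of the gene. RefSeq promoter windows (GRCh38.p14, from 250 bases before to 50 bases after the annotated start) matched 51 of the 60 members. CACGTG, a palindrome and so the same on both strands, was found in 21 of these 51 members (41.2%). Of all 15843 protein-coding genes with such a window, 1727 held it (10.9%), and of their 22199 windows, some genes having several, 1851 did (8.34%). In 17 members (33.3%) the motif reached or lay past the first transcribed base, against 245 of the 15843 genes (1.55%). A match is a description of these letters and not evidence of a bound factor. The windows below are a selection. Each holds the motif in a member whose level is described in the results, or next to the start. Not every such window is shown: those of GAR1, LTV1, PNO1, NOP2 and RRP9 are left out, among others. The E-box is in capitals, each window is written 5′ to 3′ on the gene's strand, and names with "past start" lie on the transcribed side.
UTP18 upstream, chr17:51260417-51260502 (+): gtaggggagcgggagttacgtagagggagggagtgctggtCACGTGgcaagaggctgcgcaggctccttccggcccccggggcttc
UTP18 past start, chr17:51260538-51260567 (+): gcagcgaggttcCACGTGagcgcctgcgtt
UTP4 upstream, chr16:69132593-69132648 (+): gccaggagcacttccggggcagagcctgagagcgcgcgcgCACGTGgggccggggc
UTP20 upstream, chr12:101280055-101280104 (+): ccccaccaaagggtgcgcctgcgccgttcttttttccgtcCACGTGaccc
NOP10 upstream, chr15:34343137-34343187 (-): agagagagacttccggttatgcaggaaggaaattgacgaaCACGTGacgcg
GNL2 past start, chr1:37595917-37595946 (-): gtacgtcgtgcaCACGTGgtccggcgtggt
GNL3 past start, chr3:52686026-52686055 (+): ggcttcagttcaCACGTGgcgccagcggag
FBL past start, chr19:39846356-39846385 (-): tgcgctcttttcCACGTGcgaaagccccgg
WDR43 past start, chr2:28894658-28894687 (+): cgcacggacgaaCACGTGgctgcagcgggg
BYSL past start, chr6:41921515-41921544 (+): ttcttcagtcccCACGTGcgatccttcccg
PES1 past start, chr22:30591880-30591909 (-): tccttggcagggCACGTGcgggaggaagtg
MDN1 upstream, chr6:89819904-89819989 (-): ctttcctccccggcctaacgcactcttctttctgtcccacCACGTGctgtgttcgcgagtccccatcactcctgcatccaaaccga
MDN1 past start, chr6:89819750-89819779 (-): cgtgtgctcaccCACGTGtggtgcccctct
The motif began 3 bases after the first transcribed base in GNL2 and WDR43 and 6 bases after it in GNL3 and FBL. It began 10 bases before it in UTP20, 11 in NOP10 and 16 in UTP4. UTP18, MDN1, NOP10 and IMP4 held the motif at 2 places around the same annotated start. EBNA1BP2 also held it at 2 places, but in windows of different starts.

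**Figure D1:**
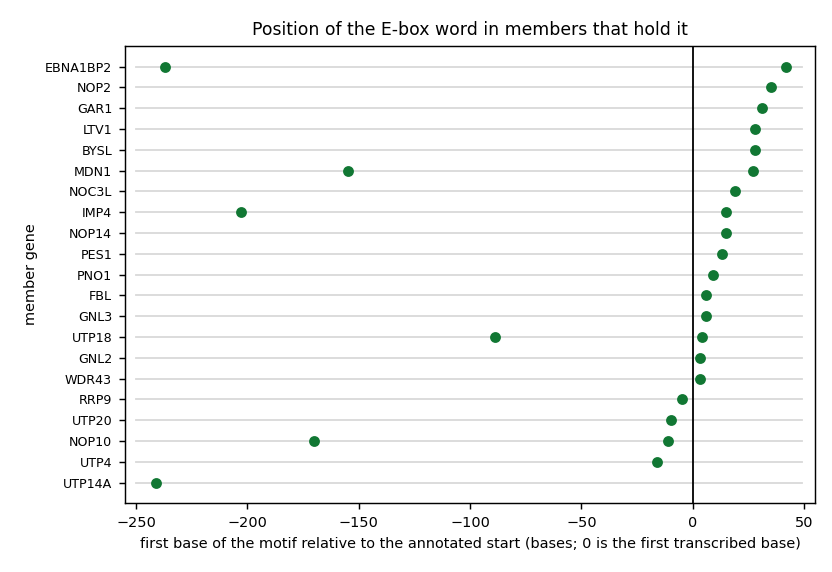
Position of CACGTG in the promoter windows of the 21 members that hold it, in bases from the annotated start (0 is the first transcribed base). Each point is 1 motif and each grey line 1 member. The motifs of EBNA1BP2 come from windows of different starts. Most of the 26 motifs lie close to the start, and 17 members have one that reaches or lies past it.

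The libraries held between 18202402 and 26156858 estimated counts, and each siDDX5 library was shallower than each control. DDX5 was at 1352, 1434 and 1137 CPM (TMM-normalised counts over the library size, scaled to a common total) in controls 1 to 3 and at 549.4, 504.5 and 395.9 CPM in siDDX5 1 to 3, a log2 change of -1.44 (SE 0.15, adjusted p = 0.0106 in edgeR's quasi-likelihood test, Benjamini-Hochberg over all genes tested). All 7 skeletal-muscle lineage markers examined were at 15.6 TPM (the deposited transcript abundance per length and depth) or above in every library. Their summed level was 1158 to 1476 TPM in control and 1115 to 1175 TPM in siDDX5. Of 8 markers of other cell types, 5 were under 1 TPM in every library, and their sum was 11.9 to 17.6 TPM in control and 10.1 to 14.0 TPM in siDDX5. Their part in the members' values was not tested.

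The question for the members was whether their mRNA levels differ between siDDX5 and control cells. Not 1 of the 60 was called at an adjusted p of 0.05 in edgeR's quasi-likelihood test on the groups alone, in which 0.164% of all genes tested were called, and none passed with the replicate number as a block, in which 2.59% were called. The smallest adjusted p of a member was 0.26 (TCOF1) without the block and 0.0532 (NOP58) with it. The fitted log2 differences ran from -0.32 to 0.39, with a median standard error of 0.15. In bulk RNA, fewer cells of a type and less RNA per cell cannot be told apart.

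The members lay mostly on the higher side. The fitted difference was above 0 in 46 of 60 (76.7%), against 49.6% of all genes tested, and its median was 0.14 on the log2 scale, against -0.0016 over all genes. The members' quartiles were 0.0043 and 0.25. That median rested in part on single libraries: it was 0.023 without siDDX5 replicate 2 and 0.059 without control replicate 3, with 35 and 40 members above 0. Unadjusted p-values under 0.05 were found for 5 members with higher siDDX5 levels and 1 with a lower level, where the shares over all genes were 5.37% and 6%. With the replicate block, 18 members were higher and 1 was lower at that level, where the shares over all genes were 10.2% and 10.3%.

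Every siDDX5 library lay above every control library for 6 members (UTP18, UTP4, UTP6, GNL2, NVL and TSR1) and below every control library for 1 (TCOF1). The same held for 8.87% and 9.16% of all genes tested, so 6 of 60 is close to the background. These separations are on CPM. On the deposited TPM the groups overlapped for UTP4, UTP6 and NVL and stayed separate for UTP18, GNL2, TSR1 and TCOF1. Comparing libraries with the same replicate number, 30 members (50%) were higher in siDDX5 in all 3 pairs, where 21.8% of all genes were. Lower in all 3 pairs were NOC4L, RRP8 and TCOF1 (5%), where 21.1% of all genes were. The members' median log2 ratio was 0.13 in pair 1, 0.15 in pair 2 and 0.13 in pair 3, and 41, 46 and 48 members were higher in siDDX5. Over all genes these medians were 0.0027, 0.0012 and 0.00037. The pairs thus gave nearly the same median, while the libraries themselves differed more widely.

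**Figure D2:**
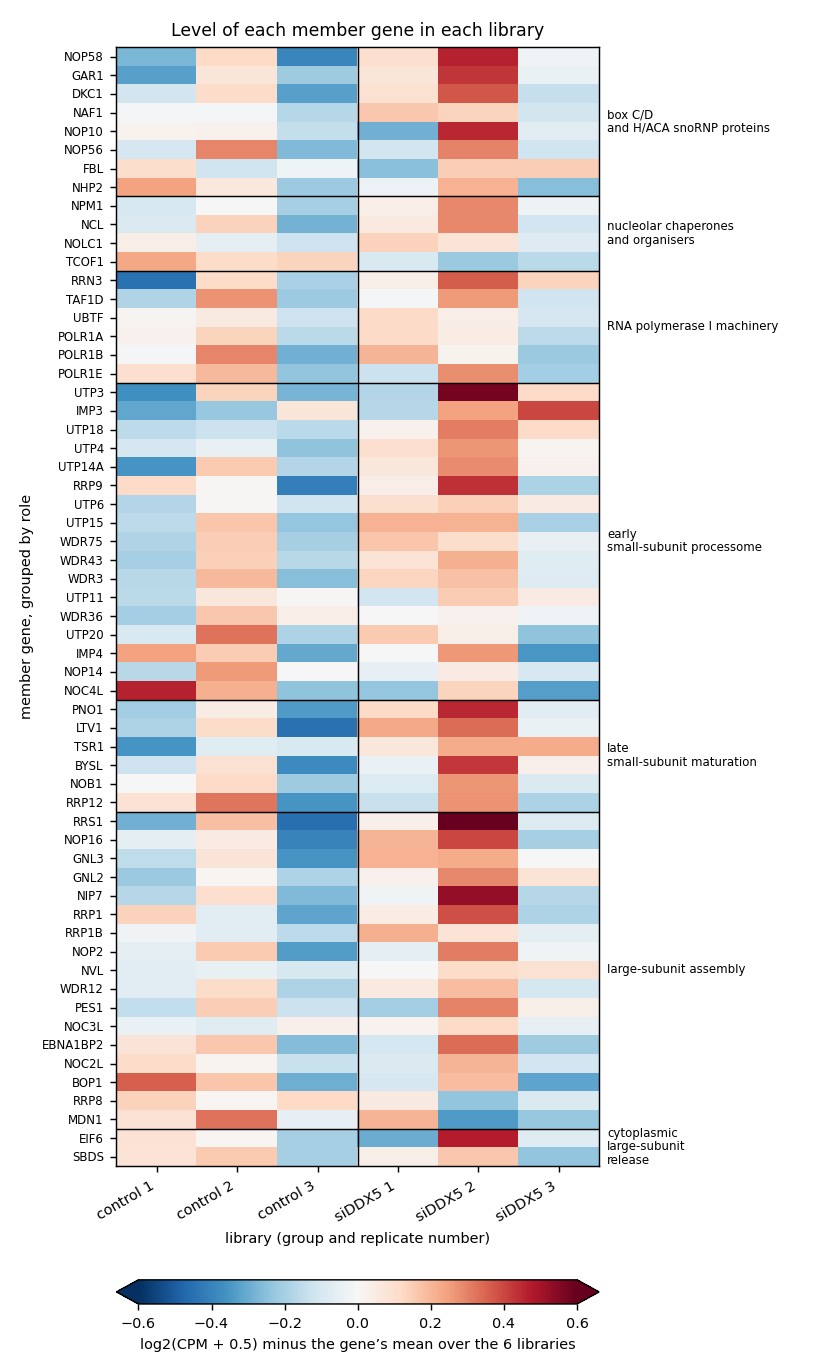
Level of each of the 60 members in each of the 6 libraries, as log2(CPM + 0.5) minus the gene's mean over the libraries (colour), with members grouped by role and ordered within a role by their fitted difference. For most members replicate 2 is high and replicate 3 is low within each group, and siDDX5 2 is the highest library for most members.

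That spread between libraries can be given as the members' median level in each, relative to every gene's own mean over the 6 libraries. It was -0.089, 0.11 and -0.20 in controls 1 to 3 and 0.034, 0.25 and -0.081 in siDDX5 1 to 3, on the scale of log2(CPM + 0.5). Control 2 therefore stood above siDDX5 1 and siDDX5 3, and the groups overlapped. In siDDX5 2, 57 of 60 members were above their own mean, and in control 3 only 7 were. The pooled within-group SD of these medians was 0.16, larger than the difference between the groups, and the medians over all genes stayed between -0.011 and 0.0084. That SD takes no account of the replicate numbers, within which the median ratios were 0.13, 0.15 and 0.13.

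Most of the snoRNP proteins listed here form the catalytic and structural core of the particles that modify ribosomal RNA. Of the 8 members of this role, 7 had a fitted difference above 0, with a median of 0.11, and none passed the test. NOP58, a core box C/D protein encoded at chr2:202265716-202303666 (GRCh38, GENCODE 29), was at 115.1, 151.3 and 106.2 CPM in controls 1 to 3 and at 149.6, 192.3 and 137.3 CPM in siDDX5 1 to 3. Each siDDX5 library was above the control of the same number, but control 2 was above siDDX5 1 and siDDX5 3. Its log2 difference was 0.36 (SE 0.17), with adjusted p = 0.45 in edgeR's quasi-likelihood test and 0.0532 with the block, the nearest of all members to the threshold. Without siDDX5 replicate 2 the difference was 0.21. GAR1, an H/ACA protein, differed by 0.32 (SE 0.16). DKC1, the H/ACA pseudouridine synthase, had 169.4, 197.1 and 146.0 CPM in control and 194.6, 237.0 and 166.1 CPM in siDDX5, a difference of 0.22 (SE 0.15) with overlapping groups. The fitted differences of the other core box C/D proteins were nearer 0, and their difference from NOP58 was not tested. NOP56 was at 243.6, 319.9 and 217.5 CPM in control and 242.0, 320.9 and 240.3 CPM in siDDX5, nearly the same values in pairs 1 and 2. FBL, the box C/D methyltransferase fibrillarin, was at 140.6, 120.3 and 128.3 CPM in control and 109.9, 144.7 and 144.9 CPM in siDDX5, lower in pair 1 and higher in the others. Their fitted differences were 0.041 (SE 0.17) and 0.037 (SE 0.13).

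The chaperones and organisers hold the most abundant members. NPM1, nucleophosmin, a histone and pre-ribosome chaperone of the outer nucleolus, had mean levels of 2156 TPM in control and 2426 TPM in siDDX5, the highest of the 60. NCL, nucleolin, an RNA-binding protein that acts early in pre-ribosomal RNA processing, followed at 1192 and 1247 TPM. NPM1 was at 1253, 1341 and 1168 CPM in control and 1381, 1636 and 1314 CPM in siDDX5, a log2 difference of 0.20 (SE 0.12). It was higher in siDDX5 in all 3 pairs, although control 2 was above siDDX5 3. NCL was at 1305, 1525 and 1140 CPM in control and 1443, 1693 and 1280 CPM in siDDX5, also higher in each pair and overlapping between groups (0.15, SE 0.15). NOLC1, a scaffold linking snoRNPs with RNA polymerase I, differed by 0.097 (SE 0.11) summed over its transcripts. Transcripts annotated for nonsense-mediated decay took 9.05%, 8.65% and 9.78% of its counts in control and 16.7%, 20.8% and 14.2% in siDDX5. The mean protein-coding share was 90.6% in control and 82.5% in siDDX5. Its unadjusted usage p was 0.174 (edgeR's diffSpliceDGE with Simes' method). These shares were picked after the values were seen.

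TCOF1, treacle, tethers RNA polymerase I factors to ribosomal DNA and is the gene mutated in most Treacher Collins syndrome. It lies at chr5:150357629-150400308 (GRCh38, GENCODE 29) on the plus strand. Its levels were 172.5, 158.1 and 161.0 CPM in controls 1 to 3 and 137.6, 125.5 and 131.0 CPM in siDDX5 1 to 3. All siDDX5 libraries were below all controls, whereas the groups overlapped for NPM1, NCL and NOLC1, whose fitted differences were above 0. The log2 difference was -0.32 (SE 0.098), with adjusted p = 0.26 in edgeR's quasi-likelihood test and 0.0749 with the block. It was below 0 under each of the 15 alternatives run, and leaving out 1 library at a time gave -0.35 to -0.28.

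RNA polymerase I subunits and factors had the lowest median of the roles, 0.019, with 4 of 6 members above 0. POLR1A, the largest subunit of the enzyme, was at 321.8, 347.3 and 283.2 CPM in control and 342.9, 326.3 and 283.5 CPM in siDDX5. POLR1B, the second-largest subunit, was at 40.9, 50.6 and 33.6 CPM in control and 47.5, 41.8 and 35.1 CPM in siDDX5. In both genes the 3 pairs went in different directions, and the fitted differences were 0.00062 (SE 0.12) and -0.0073 (SE 0.17). UBTF, the upstream binding factor that keeps ribosomal DNA open, was at 164.1, 168.8 and 148.9 CPM in control and 175.7, 167.2 and 151.3 CPM in siDDX5 (0.037, SE 0.11). These values do not show that the subunits are equal between groups, since standard errors of 0.11 to 0.17 leave room for differences of the size seen elsewhere among the members. TAF1D, a subunit of the promoter selectivity factor SL1, differed by 0.077 (SE 0.16). RRN3, the initiation factor TIF-IA that links polymerase I to growth signals, had the largest fitted difference of the role. Whether it differs from the other members of the role was not tested.

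RRN3 was at 73.6, 108.9 and 88.0 CPM in control and 103.2, 129.6 and 110.7 CPM in siDDX5. It was higher in every pair, and control 2 was above siDDX5 1. The log2 difference was 0.34 (SE 0.15), with adjusted p = 0.439 in edgeR's quasi-likelihood test and 0.0659 with the block. The gene has near-identical copies: its pseudogenes took 18.3% of the counts of the gene and its pseudogenes together, so its level is uncertain. SBDS has the same limit, with 11.0% of the joint counts on its pseudogene, whereas the 45 annotated NPM1 pseudogenes took only 0.266%.

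The early small-subunit processome, which binds nascent pre-ribosomal RNA and U3 snoRNA, has 17 members, and 12 were above 0, with a median of 0.15. UTP3, a processome factor, showed 26.9, 38.3 and 28.6 CPM in control and 30.8, 52.1 and 37.8 CPM in siDDX5. Its difference of 0.36 (SE 0.20) was the second largest of the 60 and was 0.13 without siDDX5 replicate 2, the highest library. UTP18 is a WD-repeat protein of the processome at chr17:51260528-51297936 (GRCh38, GENCODE 29) whose window with 2 E-boxes is printed above. Its controls were tightly grouped at 82.6, 84.1 and 82.3 CPM, and siDDX5 1 to 3 were at 93.7, 113.8 and 99.7 CPM. The groups were separate, with a log2 difference of 0.30 (SE 0.11) and adjusted p = 0.325 in edgeR's quasi-likelihood test. UTP4 and UTP6, also of the processome, were separate on CPM as well, with differences of 0.26 (SE 0.11) and 0.19 (SE 0.10). On TPM the groups overlapped for both UTP4 and UTP6, but not for UTP18. These genes were singled out after their values were seen.

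Other processome members had smaller or negative fitted differences. UTP20, a very large scaffold protein, was at 137.8, 183.8 and 129.1 CPM in control and 163.8, 150.2 and 124.2 CPM in siDDX5, so that the pairs went both ways (-0.040, SE 0.16). WDR43, a subunit of the first processome complex to bind pre-ribosomal RNA, was at 137.1, 173.4 and 140.2 CPM in control and 166.3, 182.4 and 149.6 CPM in siDDX5, higher in every pair with overlapping groups (0.14, SE 0.13). NOC4L, a partner of NOP14, was the member with the lowest fitted difference and the lowest mean level per length, 6.83 TPM in control and 5.63 TPM in siDDX5. Its values were 9.99, 8.33 and 5.94 CPM in control and 5.98, 7.85 and 5.56 CPM in siDDX5. The difference of -0.32 (SE 0.23, adjusted p = 0.629, edgeR's quasi-likelihood test) came largely from the first pair, and the groups overlapped.

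Late small-subunit maturation had the highest median of the roles, 0.31, with 5 of 6 members above 0. TSR1, a GTPase-like factor that blocks premature subunit joining, is encoded at chr17:2322503-2337507. It was at 112.5, 136.9 and 134.8 CPM in control and 150.9, 168.1 and 167.9 CPM in siDDX5. All siDDX5 libraries were above all controls, with a log2 difference of 0.34 (SE 0.11) and adjusted p = 0.299 in edgeR's quasi-likelihood test. PNO1 and LTV1, both late assembly factors of the small subunit, differed by 0.34 (SE 0.15 and 0.16), higher in all 3 pairs with overlapping groups. BYSL, bystin, was at 28.8, 33.5 and 24.0 CPM in control and 30.6, 42.3 and 32.1 CPM in siDDX5, higher in every pair (0.28, SE 0.17). NOB1, the endonuclease that makes the mature end of 18S ribosomal RNA, was at 22.0, 23.8 and 18.9 CPM in control and 20.7, 26.5 and 20.7 CPM in siDDX5. Its difference was 0.068 (SE 0.15), and that of RRP12, a further factor of this role, was -0.048 (SE 0.19), or 0.17 on length-scaled counts. Differences between members of the role were not tested.

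**Figure D3:**
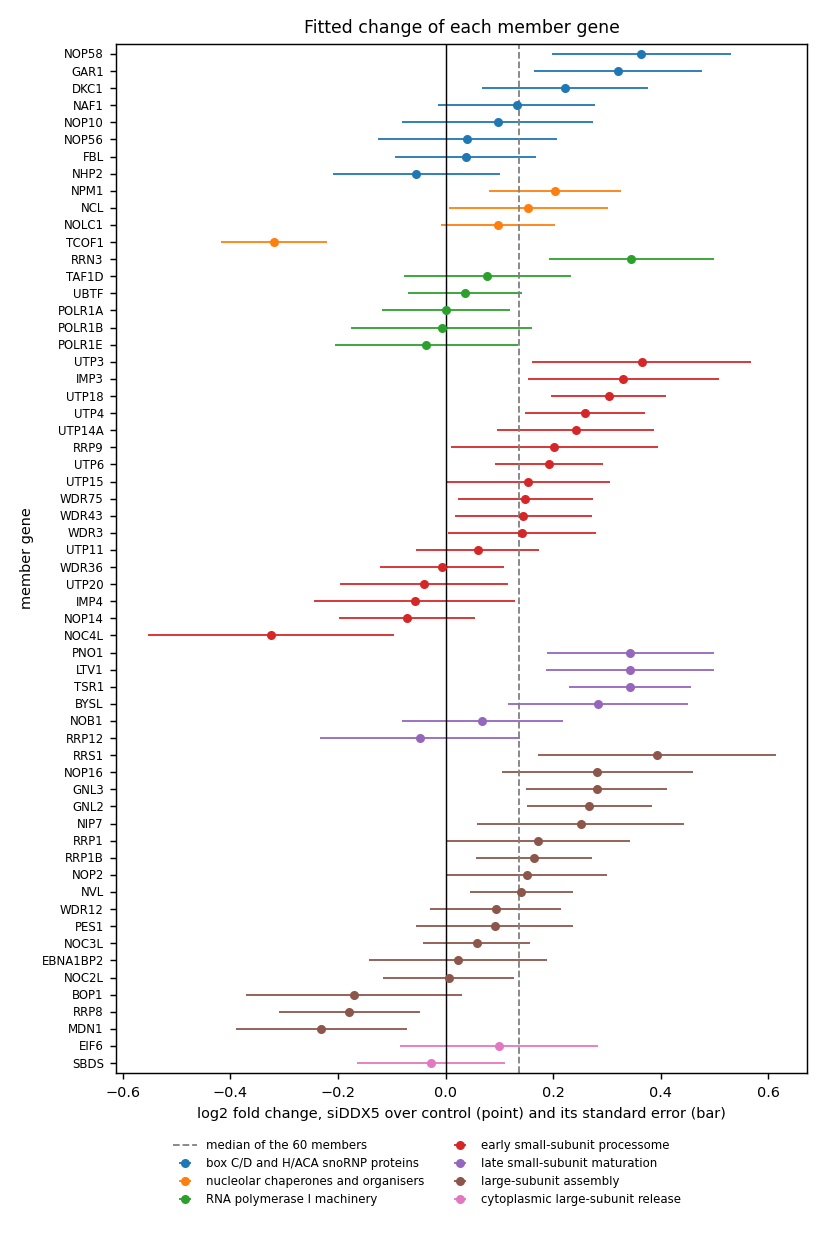
Fitted log2 fold change of each member, siDDX5 over control (point), with its standard error (bar), coloured by role and ordered within a role; the dashed line is the median of the 60 members, 0.14. Most points lie to the right of 0, TCOF1 and NOC4L lie farthest to the left at -0.32, and no member passed an adjusted p of 0.05.

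Large-subunit assembly factors had a median of 0.14 and 14 of 17 members above 0. RRS1, which brings the 5S ribonucleoprotein into the pre-60S particle, had the largest fitted difference of all members. It was at 19.0, 26.5 and 16.9 CPM in control and 23.8, 36.0 and 22.0 CPM in siDDX5. Each pair was higher in siDDX5, but control 2 was above siDDX5 1 and siDDX5 3. The log2 difference was 0.39 (SE 0.22), with adjusted p = 0.538 in edgeR's quasi-likelihood test and 0.0747 with the block. Without siDDX5 replicate 2 it was 0.14, and without control replicate 2 it was 0.61.

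The nucleolar GTPases GNL3 and GNL2 had higher mean levels in siDDX5. GNL3, nucleostemin, was at 115.4, 135.3 and 100.1 CPM in control and 148.4, 149.9 and 127.8 CPM in siDDX5, with only control 2 above siDDX5 3 (0.28, SE 0.13). GNL2 was at 117.0, 137.8 and 120.0 CPM in control and 139.2, 167.2 and 144.7 CPM in siDDX5, with separate groups (0.27, SE 0.12). NVL, an AAA ATPase of pre-60S particles, had groups that were separate on CPM but not on TPM, with a difference of 0.14 (SE 0.096). NOP2, a ribosomal RNA methyltransferase and proliferation antigen, was at 145.7, 168.4 and 119.9 CPM in control and 145.7, 187.4 and 148.7 CPM in siDDX5, level in pair 1 (0.15, SE 0.15).

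PES1, BOP1 and WDR12 form the PeBoW complex, which is needed to process the large-subunit RNA. PES1 was at 119.6, 146.8 and 121.2 CPM in control and 114.6, 162.8 and 135.5 CPM in siDDX5. BOP1 was at 19.2, 16.7 and 12.0 CPM in control and 13.8, 16.9 and 11.8 CPM in siDDX5. Their log2 differences were 0.091 (SE 0.15) and -0.17 (SE 0.20), and that of WDR12 was 0.093 (SE 0.12), so the 3 subunits showed no common shift beyond their errors. BOP1 was also the second lowest member per length, at 9.90 TPM in control, against 114 TPM for PES1 and 45.8 TPM for WDR12.

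MDN1, the giant AAA ATPase that remodels pre-60S particles, went the other way from most of its role. It was at 210.2, 248.8 and 191.2 CPM in control and 228.0, 156.5 and 169.4 CPM in siDDX5, lower in pairs 2 and 3 and higher in pair 1. In siDDX5 2, the library in which 57 of 60 members were above their own mean, MDN1 was at its lowest. The difference was -0.23 (SE 0.16, adjusted p = 0.618, edgeR's quasi-likelihood test). RRP8, a nucleolar methyltransferase, was lower in all 3 pairs (-0.18, SE 0.13), although on length-scaled counts its difference was 0.0048.

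SBDS and EIF6 act after export, where SBDS helps to evict EIF6 from the large subunit in the cytoplasm. SBDS was at 127.1, 134.0 and 104.5 CPM in control and 122.7, 134.1 and 101.6 CPM in siDDX5, close to each other in every pair. EIF6 was at 99.6, 94.7 and 81.8 CPM in control and 76.3, 130.3 and 89.2 CPM in siDDX5, the lowest and the highest value both in siDDX5. The differences were -0.028 (SE 0.14) and 0.10 (SE 0.18).

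**Figure D4:**
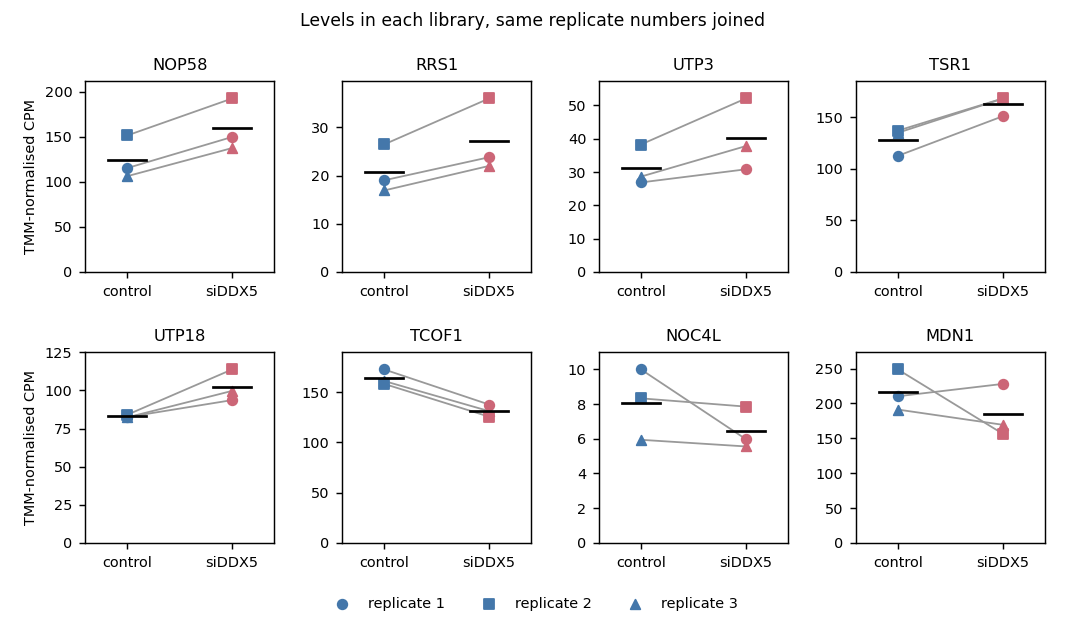
TMM-normalised CPM in each library for 8 members (NOP58, RRS1, UTP3, TSR1, UTP18, TCOF1, NOC4L and MDN1), with libraries of the same replicate number joined by grey lines and group means as black bars; each vertical axis starts at 0. The groups are separate for TSR1, UTP18 and TCOF1 and overlap for the other members drawn.

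The rest of the pathway was read from a list of 96 other ribosome biogenesis genes, all of them tested. Of these, 70 (72.9%) were above 0, against 49.6% of all genes tested, with a median of 0.098. Higher in all 3 pairs were 42 (43.75%), against 21.8% of all genes. None was called on the groups alone, where 0.164% of all genes were. With the replicate block 2 of the 96 were called, near the share of 2.59% over all genes. CD3EAP, a subunit of RNA polymerase I, was at 31.6, 44.8 and 26.7 CPM in control and 53.6, 72.0 and 45.7 CPM in siDDX5, and rose in the fit with the block. All siDDX5 libraries were above all controls, and its log2 difference was 0.73 (SE 0.21), with adjusted p = 0.248 in edgeR's quasi-likelihood test and 0.00657 with the block. AATF, a processome subunit also known as a transcription cofactor, was at 113.2, 121.4 and 112.2 CPM in control and 71.4, 87.1 and 73.2 CPM in siDDX5, and fell in the fit with the block. Its groups were separate, with a difference of -0.58 (SE 0.11) and adjusted p = 0.0781 in edgeR's quasi-likelihood test and 0.0123 with the block. Both differences were larger in size than that of any of the 60 members. Over the 96 genes the fitted differences ran from -0.97 to 0.73, and the lowest belonged to a gene called in neither fit. By role, 6 of 9 snoRNP assembly factors, 6 of 9 polymerase I genes, 24 of 31 small-subunit genes, 10 of 15 helicases and 24 of 32 large-subunit genes were above 0.

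The ribosomal proteins themselves gave similar medians but a different pattern over the pairs. Of 86 cytosolic ribosomal protein genes tested, 76 (88.4%) were above 0, against 49.6% of all genes, with a median of 0.098. Their pair medians were -0.28, 0.38 and 0.18. Only 1 of them (1.16%) was higher in all 3 pairs, against 21.8% of all genes. The 78 mitochondrial ribosomal protein genes had a median of 0.11 and pair medians of -0.066, 0.28 and 0.11. No gene of either class was called on the groups alone. With the replicate block 2 mitochondrial ones were called, both lower, where 2.59% of all genes were called. The 60 members, at 0.13, 0.15 and 0.13, and the 96 others were thus more even over the pairs than either class of ribosomal protein, a difference that was not tested.

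**Figure D5:**
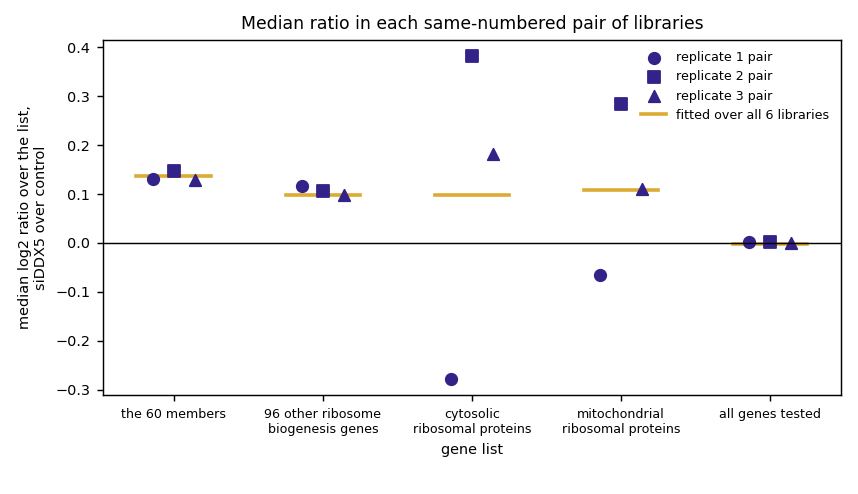
Median log2 ratio of siDDX5 over control in each same-numbered pair of libraries (points) for the 60 members, 96 other ribosome biogenesis genes, cytosolic and mitochondrial ribosomal proteins and all genes tested; gold lines are medians of the differences fitted over all 6 libraries. The members' pairs lie between 0.13 and 0.15, and those of the cytosolic ribosomal proteins between -0.28 and 0.38.

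MYC and MYCN were also read out, because their proteins bind the E-box described above. They belong to a list of 6 regulators of ribosome production with a median difference of -0.072. MYC and MYCN were the 2 of these above 0 (33.3%, against 49.6% of all genes tested), and the other 4 were below. None of the 6 was called, and 3 (50%) were lower in all 3 pairs, against 21.1% of all genes tested. MYC was at 49.3, 51.4 and 49.6 CPM in control and 49.2, 76.7 and 59.2 CPM in siDDX5. It was highest in siDDX5 2, where the members were highest too. In pair 1 MYC was level, while the members' median log2 ratio was 0.13. The log2 difference of MYC was 0.30 (SE 0.15, adjusted p = 0.498, edgeR's quasi-likelihood test). MYCN, a known target gene of the PAX3-FOXO1 fusion protein, was at 32.7, 25.8 and 27.7 CPM in control and 29.2, 28.3 and 32.7 CPM in siDDX5 (0.066, SE 0.13). Neither passed the test, and any part of either in the members' values was not tested. The median difference was 0.15 in the 21 members with the E-box and 0.12 in the 30 matched members without it. Over the matched protein-coding genes tested, these medians were 0.015 and 0.0019.

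The tables give values per transcript, so the share of each member's counts on each transcript could be followed. Transcript usage could be tested in 53 members, and none passed an adjusted p of 0.05 (edgeR's diffSpliceDGE with Simes' method). In that test 1.59% of 10704 genes were called without the replicate block and 1.21% with it. The smallest adjusted p of a member was 0.363 (UTP15), or 0.27 with the block. An unadjusted p under 0.05 was found for 3 members, UTP15, TCOF1 and POLR1A, where 5.37% of all genes had one. With the block it was found for 5, where 6.23% of all genes had one. These were UTP15, TCOF1, WDR75, POLR1B and RRN3, and POLR1A was no longer among them.

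UTP15 is a processome protein at chr5:73565443-73583377. Its transcript ENST00000508491.1 took 11.0%, 6.45% and 8.70% of its counts in controls 1 to 3 and 1.75%, 2.71% and 1.46% in siDDX5 1 to 3. The groups were separate, though the transcript is a minor one. Single transcripts of other members, PES1, GNL3 and NOLC1 among them, were separate too. The share of all transcripts that were separate is not given here. POLR1A transcript ENST00000409681.1 took 8.05%, 9.88% and 7.15% in control and 4.55%, 1.68% and 3.91% in siDDX5, again separate. The main transcript, ENST00000263857.11, took 87.1% to 90.1% in control and 93.5% to 97.8% in siDDX5. For both genes the sign of the fitted difference depended on the scale. The difference of POLR1A was -0.20 on length-scaled counts and that of UTP15 was -0.054, against 0.00062 (SE 0.12) and 0.15 (SE 0.15) on counts. On counts POLR1A thus had no clear direction, and the part of transcript usage in these signs was not tested. TCOF1 transcript ENST00000642994.1 took 29.4%, 7.14% and 44.2% in control and 0.0074%, 1.2e-07% and 8.82% in siDDX5. The ranges overlapped, and the division of reads between the many TCOF1 transcripts varied widely even within the control group.

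Retained-intron transcripts took more than 20% of the counts, on average over the 6 libraries, in 6 of the 60 members (UTP6, GAR1, IMP4, NAF1, GNL3 and TAF1D) and in 11.6% of all genes tested, a similar share. In 3 of them every siDDX5 library was below every control, and in none was every siDDX5 library above. Among all 1767 genes over that threshold, 8.89% were below and 3.28% above in the same sense. UTP6 had 69.5%, 71.3% and 72.3% of its counts on such transcripts in control and 68.3%, 64.4% and 65.9% in siDDX5. GNL3 had 24.2%, 28.7% and 25.1% in control and 22.1%, 21.1% and 20.5% in siDDX5. TAF1D had 60.0%, 59.6% and 60.5% in control and 57.5%, 56.8% and 58.7% in siDDX5. These separations were looked at after the values were seen, and no test was made of them.

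Several members carry the guide RNAs of the same pathway in their introns. GENCODE 29 places 33 snoRNA genes inside 8 members on the same strand: 8 in TAF1D, 6 in GNL3, 5 in NOP56, 4 in NOP58, 3 each in NCL and WDR43, and 2 each in DKC1 and TSR1. That is 13.3% of the members, against 244 of 14119 protein-coding genes tested (1.73%). The 8 host members had a median log2 difference of 0.19 and the other members one of 0.099. Over all protein-coding genes tested, these medians were 0.039 for hosts and 0.0015 for the others. The host members include both NOP58, at 0.36, and NOP56, at 0.041. The snoRNAs themselves are not measured by libraries of polyadenylated RNA.

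Exons of 20 members share sequence positions with another tested gene, on the opposite strand in 18 and on the same strand in 2 (NOP2 and EIF6). Per the labels the kit marks strand, and whether the quantification used it is not given in the sources used here. The partner was the more abundant gene for TSR1, at 47.9 TPM against 60.6 TPM for SRR, and for NOP16, at 51.9 TPM against 88.4 TPM for HIGD2A. The level of TSR1 in particular is uncertain to that extent.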

How the data were processed

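Polyadenylated RNA of 3 control and 3 siDDX5 cultures was sequenced from stranded libraries. Per the submitters' processing notes the authors used bcl2fastq 2.20, FastQC 0.11.8, cutadapt 1.11 and kallisto 0.46.0, with GRCh38 and hg38 as builds. The annotation and the kallisto settings are not given in the sources used here. Each deposited table gives, per transcript, an estimated count (not normalised), a TPM value (normalised by the authors for length and depth), a length and an effective length.

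Of 188753 transcripts, 169797 were joined to GENCODE 29 genes by identifier, 15315 by symbol and 890 by position, and 2751 were left out. The joined transcripts held 99.6% of the estimated counts. Sums per gene were rounded to whole counts, filtered with filterByExpr, normalised by TMM and tested with edgeR 4.0.16's quasi-likelihood test in R 4.3.3 over 15223 genes, with Benjamini-Hochberg adjustment and a threshold of 0.05. CPM values are TMM-normalised. The expression and usage tests were tested on simulated data, where the usage test recovered few planted changes and made false calls at the real transcripts' spread. At 18202402 to 26156858 counts a library, a floor of 3 counts is 0.115 to 0.165 CPM, covering counting error only.

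The reported fit was on the groups alone, since the labels state no pairing. Over 15223 genes, deviations from the group mean correlated at 0.21, 0.27 and 0.58 between control and siDDX5 libraries of the same number (from the titles). The numbers therefore entered as a block in an alternative fit. The biological CV was 15.7% in the reported fit, which ignores any such pairing, and 10.2% with the block. Alternatives were DESeq2 1.42.0 size factors and its Wald test, no filter, length-scaled TPM, limma 3.58.1 on log2(TPM + 1) and log2(TPM + 0.1), the replicate block, primary-assembly identifiers only, each library left out, and, chosen after seeing the data, both libraries of replicate number 3 left out.

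The members and lists were chosen with earlier results of these data known. Named genes were DDX5, members called in either fit, the 3 highest and 3 lowest differences, fixed members of each role, other listed genes called in either fit, MYC and MYCN. UTP18, UTP4, UTP6, GNL2, NVL, TSR1, RRP8, UTP15, LTV1, PNO1, GAR1 and RRP12, and genes named only in counts, were chosen after their values were seen.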

Additional observations from a re-analysis of the deposited data

How the results depend on the processing

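No member was called in any of the 15 alternatives: the lowest adjusted p was 0.0532, with the replicate block, and 0.103 with DESeq2's Wald test, while unadjusted p-values under 0.05 numbered 6 in the reported fit, 9 with DESeq2's Wald test, 19 with the block and 0 without both replicate 3 libraries. The members' median stayed above 0, from 0.023 to 0.19 when 1 library was left out, with 35 to 53 members above 0 over all alternatives, and 35 members kept their sign in all of them. The number of genes called over the whole table was 25, and 323 with DESeq2's Wald test, 136 with no filter, 2 on length-scaled counts, 1 with limma at either pseudocount, 394 with the replicate block, 4 without both replicate 3 libraries and 0 to 15 without 1 library; the cause was not tested. Among the genes whose differences are given in the text, the block changed the calls of CD3EAP and AATF only; 2 mitochondrial ribosomal protein genes were also called with it.

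DDX5 stayed below 0 but missed the threshold on length-scaled counts (-1.37) and with limma (-1.44 at both pseudocounts), and it ranged from -1.54 to -1.30 without 1 library. CD3EAP was called at 0.74 with the Wald test and the block, and ranged from 0.53 to 0.97 without 1 library; AATF was called at -0.57 (Wald), -0.58 (no filter) and -0.59 (block), and ranged from -0.68 to -0.53. Some fitted differences changed sign, most of them near 0 but also UTP15 (0.15 in the reported fit) and RRP8 (-0.18): POLR1A was -0.0015 with no filter, -0.20 on length-scaled counts and -0.25 with limma at both pseudocounts; POLR1B was 0.059 on length-scaled counts, 0.024 and 0.025 with limma and 0.0012 with the replicate block; UBTF was -0.044 with limma at both pseudocounts; UTP15 was -0.054 on length-scaled counts and -0.10 and -0.11 with limma; RRP8 was 0.0048 on length-scaled counts; RRP12 was 0.17 on length-scaled counts and 0.11 and 0.12 with limma; FBL was -0.032 and MYCN -0.022 without both replicate 3 libraries. Leaving out 1 library gave ranges across 0 for FBL (-0.027 to 0.16), NOP56 (-0.11 to 0.22), POLR1A (-0.075 to 0.085), POLR1B (-0.14 to 0.16), UBTF (-0.015 to 0.10), TAF1D (-0.036 to 0.26), UTP20 (-0.14 to 0.13), NOB1 (-0.059 to 0.15), PES1 (-0.048 to 0.21), SBDS (-0.13 to 0.085), EIF6 (-0.15 to 0.26), RRP12 (-0.21 to 0.12) and MYCN (-0.0016 to 0.18).

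Transcript usage was called in 170 genes, and in 395 with no filter, 41 with a mean of at least 50 counts and 216 to 453 without 1 library. For the members the count was 0, then 1 (RRP12) with no filter and 0 to 2 without 1 library. The median member's standard error was 0.15 without the block; the power to detect differences of the members' size was not tested.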
